A study of Mus musculus with 6 samples.

Results

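The genes described here are the 10 genes that mark or pattern the boundary between midbrain and hindbrain, namely the Engrailed genes En1 and En2, the paired box genes Pax2, Pax5 and Pax8, the ligand genes Fgf8, Fgf17 and Wnt1, and the position genes Gbx2 and Otx2. They were taken by name, 10 of the 26852 genes listed, and all 10 had values. The RNA came from midbrains dissected at E14.5 from mouse embryos on a C57Bl/6 background, as 3 libraries of Lmx1b fl/fl; Pitx3-Cre embryos (cKO) and 3 libraries of Lmx1b wt/wt; Pitx3-Cre embryos (control), each library a pool of embryos. Both groups carry Pitx3-Cre, in which Cre replaces one copy of Pitx3, so the controls also have a single Pitx3 allele. Cre acts in Pitx3-expressing dopaminergic neurons from shortly before the stage sampled, while the RNA is that of the whole dissected midbrain, in which fewer cells of a type and less RNA per cell cannot be told apart. The libraries were listed only as group means, from which the read counts of each library were recovered. The recovered libraries carry their genotype but no sample number and are called replicates a, b and c.

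The isthmic organizer is a signalling centre that forms where Otx2-expressing midbrain meets Gbx2-expressing hindbrain. It secretes FGF8 and related FGFs on its hindbrain side and WNT1 on its midbrain side, and a gradient of the transcription factors EN1, EN2, PAX2, PAX5 and PAX8 forms across the neighbouring tissue. En1 and En2 are also expressed by dopaminergic neurons of the midbrain, whose survival depends on them. LMX1B, a LIM homeodomain factor, is known to be needed for several of these genes in the early embryo, and the late deletion in this cross was meant to spare that step. The values below describe these genes at E14.5, and whether that step was spared was not tested.

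En1 and En2 are close relatives, and counts of either could in principle take reads of the other, so the most alike part of their coding sequence is shown. Over 335 aligned bases the 2 coding sequences were 80.9% identical, and within the homeobox, the part that codes for the DNA-binding homeodomain, 150 of 180 bases were the same (83.3%). The longest run shared by their transcripts was 17 bases. The lines below give bases 931 to 1110 of the En1 coding sequence and bases 700 to 879 of that of En2 (GENCODE M21 transcripts, 5′ to 3′), with the bases that differ in capitals.
En1: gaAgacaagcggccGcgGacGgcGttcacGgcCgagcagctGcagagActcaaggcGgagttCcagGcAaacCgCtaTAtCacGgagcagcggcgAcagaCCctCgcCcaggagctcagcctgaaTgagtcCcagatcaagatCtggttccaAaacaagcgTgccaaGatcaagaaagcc
En2: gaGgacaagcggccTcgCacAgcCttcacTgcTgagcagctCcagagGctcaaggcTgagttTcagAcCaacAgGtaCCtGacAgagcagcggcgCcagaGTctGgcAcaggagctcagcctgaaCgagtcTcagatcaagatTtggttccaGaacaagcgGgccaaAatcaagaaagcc

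The differences are spread over the whole homeobox. Among the other related members, the longest run shared by transcripts was 17 bases for Pax2 and Pax5 and for Pax5 and Pax8, 20 bases for Fgf8 and Fgf17, and 27 bases for Pax2 and Pax8. The last of these lies in the paired box, the part of Pax genes that codes for their DNA-binding paired domain, and reads ggcaggtactacgagactggcagcatc.

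The sequences before the transcription starts of En1, Pax5 and Otx2 are shown because En1 and Pax5 had lower counts in the cKO while Otx2 lay at the same level in both groups. RefSeq promoter windows of 250 bases before a start (GRCm38.p6) were found for 7 of the 10 members, 12 windows in all, and were searched on both strands for TAATTA, a core that many homeodomain proteins bind, and for TAATCC, a core bound by OTX factors. TAATTA reads the same on both strands, and no match overlapped another. TAATTA was found in 2 of the 12 windows, both of Otx2, and in 4.84% of the 32851 windows of all genes. TAATCC was found in 1 of the 12, also of Otx2, and in 6.25% of all windows. The windows of En1, Pax5, Pax8, Pax2, Wnt1 and Gbx2 held neither, which says only that these letters are not in these windows. Of the 4 Otx2 windows, the one printed holds 1 TAATTA. The other 3 TAATTA and the TAATCC stand in a window whose first base already lies in a GENCODE exon of Otx2, and which is not printed. The En1 window is given up to its first GENCODE exon, and matches are in capitals.
En1, chr1:120602237-120602417, plus strand: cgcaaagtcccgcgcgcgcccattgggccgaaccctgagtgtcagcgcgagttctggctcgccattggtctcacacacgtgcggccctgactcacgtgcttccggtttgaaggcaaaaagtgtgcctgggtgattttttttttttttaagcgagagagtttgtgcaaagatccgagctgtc
Pax5, chr4:44710695-44710944, minus strand: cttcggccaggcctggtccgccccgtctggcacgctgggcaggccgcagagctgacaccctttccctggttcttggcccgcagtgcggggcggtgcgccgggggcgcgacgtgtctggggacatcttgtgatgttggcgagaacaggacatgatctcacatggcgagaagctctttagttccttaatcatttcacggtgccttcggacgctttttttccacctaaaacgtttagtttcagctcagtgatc
Otx2, chr14:48667645-48667894, minus strand: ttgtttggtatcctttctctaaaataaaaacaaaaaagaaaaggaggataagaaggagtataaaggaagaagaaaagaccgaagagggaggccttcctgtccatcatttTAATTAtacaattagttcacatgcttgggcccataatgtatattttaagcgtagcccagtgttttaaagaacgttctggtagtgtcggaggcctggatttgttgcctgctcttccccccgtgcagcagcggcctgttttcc

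Each library held 19711032 to 23954501 reads on the 26248 genes recovered in both groups. A normalized count is the read count of a library divided by its size factor, and limma was run on the 16573 genes whose mean over both groups reached 10. None passed an adjusted p-value of 0.05 (0%, the smallest adjusted p-value being 0.9998), with 466 genes (2.81%) at an unadjusted p-value under 0.05, and limma-trend gave 0 and 474 genes. All calls below are therefore unadjusted. The targeted gene Lmx1b had normalized counts of 1257, 1401 and 1455 in the cKO, and 1368, 1352 and 1474 in control libraries, which gave a log2 fold change of -0.03 ± 0.07 (SE). Its count spans the whole gene, the deleted stretch is not given in the sources used here, and Lmx1b is also expressed outside Pitx3-positive cells, so this value does not check the genotype. Some libraries stood apart. The summed normalized count of 10 bone and mesenchyme genes was 14493 in cKO replicate c, 2475 in cKO replicate a and 807 to 938 in the other 4 libraries, and control replicate a had the highest counts of several hindbrain-side genes given below.

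En1, En2 and Pax5 were lower in the cKO, Pax8 had a lower mean, Gbx2 had a higher mean, and Otx2 hardly differed between the groups. Of the 9 members tested, 3 had an unadjusted p-value under 0.05, all 3 lower in the cKO, against 1.62% of all genes tested that were lower and 1.19% that were higher at that threshold. The cKO and control libraries did not overlap for 2 members, En1 and En2, both lower in the cKO, as was so for 3.81% of all genes tested. The median log2 fold change of the 9 members was -0.40, and that of all genes tested was 0.00 (8303 of 16573 genes below 0). With a library left out, the members' median was -0.46 to -0.12. It was -0.12 without control replicate a and -0.16 without cKO replicate a. Leaving out each library in turn gave 2 to 5 members at that threshold. The count was 2 without cKO replicate a or without control replicate c, and 5 without cKO replicate c or without control replicate b.

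**Figure D1:**
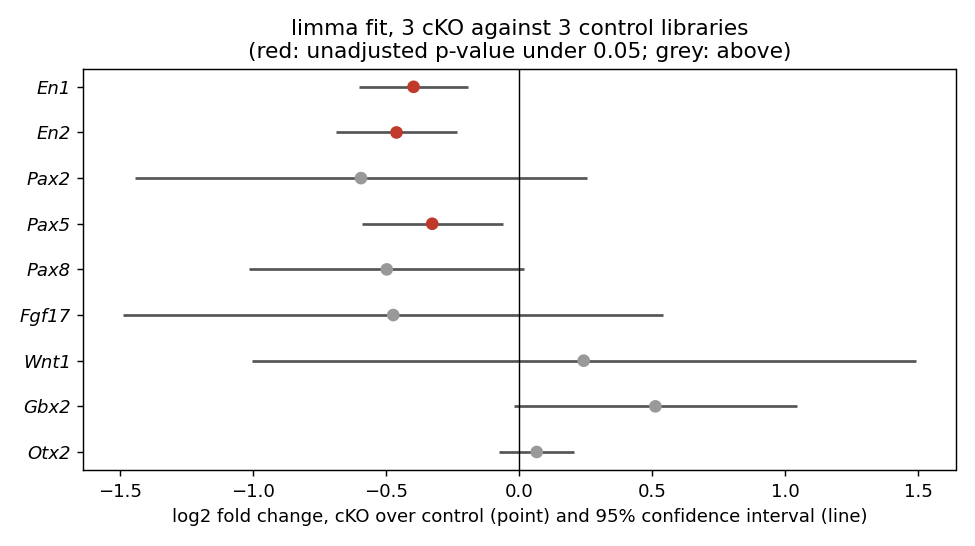
Log2 fold change of the 9 tested members (x axis, cKO over control, points) with 95% confidence intervals (lines), from limma on 3 cKO and 3 control libraries. The intervals of En1, En2 and Pax5 (red, unadjusted p-value under 0.05) lie below 0, those of Pax8 and Gbx2 just reach across it, and that of Otx2 is the narrowest around 0.

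En1 (ENSMUSG00000058665, chr1:120602418-120607992, plus strand) codes for a homeodomain repressor that patterns the midbrain and keeps dopaminergic neurons alive. Its normalized count was 939.7, 1058 and 1147 in cKO replicates a to c, and 1277, 1326 and 1540.2 in control replicates a to c. Every cKO library lay below every control library, the nearest pair being 129 normalized counts apart. The means were 1048 ± 104 in the cKO and 1381 ± 140.1 in the control (SD, n = 3), 24.1% lower in the cKO, and the exact two-sided permutation test gave unadjusted p = 0.1, the smallest that 3 against 3 libraries allow. The limma log2 fold change was -0.40 ± 0.09 (SE), with a 95% confidence interval of -0.60 to -0.19 and an unadjusted p-value of 0.0013. It ranged from -0.46 to -0.32 when each library was left out, with a largest unadjusted p-value of 0.0074.

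En2 (ENSMUSG00000039095, chr5:28165694-28172166, plus strand), the relative of En1 with a later and more cerebellar role, showed the same order of groups. Its normalized count was 1413, 1716 and 1889 in cKO replicates a to c, and 2400, 2012 and 2440 in control replicates a to c. The groups did not overlap, with 124 normalized counts between the highest cKO and the lowest control library. The means were 1673 ± 241 in the cKO and 2284 ± 236 in the control (SD, n = 3), 26.8% lower in the cKO, with an exact permutation p of 0.1. The limma log2 fold change was -0.46 ± 0.10 (SE), with an interval of -0.69 to -0.23 and an unadjusted p-value of 0.00086. Left-out libraries moved it between -0.55 and -0.34, and the largest unadjusted p-value was 0.0054.

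The Engrailed genes were thus lower by a similar proportion, and their ratio within a library was compared directly. There were 1.5 to 1.65 En2 counts per En1 count in the cKO libraries and 1.52 to 1.88 in the control libraries. The means were 1.59 ± 0.08 and 1.66 ± 0.19 (SD, n = 3), a difference smaller than the spread between libraries (exact permutation p = 0.8, adjusted p = 0.8 over the 7 ratios compared). The ratio of En1 to Pax5 also overlapped between the groups, at 0.25 ± 0.02 and 0.26 ± 0.01 (exact permutation p = 0.4, adjusted p = 0.47). The ratio of En1 to Otx2 was 0.54 to 0.62 in the cKO and 0.71 to 0.96 in the control, and that of En2 to Otx2 was 0.81 to 1.01 and 1.17 to 1.51. Neither ratio overlapped between the groups, and each had an exact permutation p of 0.1 (adjusted p = 0.14). Set against Th, which codes for tyrosine hydroxylase and marks dopaminergic neurons, En1 was at 1.26 to 1.47 in the cKO and 1.58 to 1.68 in the control, and En2 at 1.90 to 2.43 and 2.5 to 3.09, again without overlap. Set against Lmx1b, En1 was at 0.75 to 0.79 in the cKO and 0.93 to 1.04 in the control. These 3 ratios also had an exact permutation p of 0.1 and an adjusted p of 0.14. En1 and En2 themselves did not overlap between the groups, while Otx2, Th and Lmx1b did not pass the unadjusted threshold. The ratios to Otx2, Th and Lmx1b thus largely restate the differences of En1 and En2 and are no separate evidence.

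Pax5 (ENSMUSG00000014030, chr4:44524757-44710487, minus strand), a paired box factor of the caudal midbrain, had the highest read count of the members. Its normalized count was 3376, 4484 and 4879 in cKO replicates a to c, and 4729, 5037 and 6100.2 in control replicates a to c. cKO replicate a was far below the other libraries, and cKO replicate c lay above control replicate a, so the groups overlapped. The means were 4246 ± 780 and 5289 ± 719 (SD, n = 3), 19.7% lower in the cKO, and the limma log2 fold change was -0.33 ± 0.12 (SE), with an unadjusted p-value of 0.020. The call was lost without cKO replicate a (-0.16, unadjusted p = 0.11) and without control replicate c (-0.22, unadjusted p = 0.098).

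Pax8 (ENSMUSG00000026976, chr2:24420560-24475599, minus strand), which is expressed later than Pax2 in the same region, had normalized counts of 115, 213 and 259 in cKO replicates a to c, and 254, 239 and 281 in control replicates a to c. Apart from cKO replicate a, the libraries of both groups lay within 213 to 281. The log2 fold change was -0.50 ± 0.24 (SE, unadjusted p = 0.058), it was -0.13 (unadjusted p = 0.44) without cKO replicate a, and it passed the threshold without cKO replicate c (-0.73, unadjusted p = 0.010). Pax2 (ENSMUSG00000004231, chr19:44756045-44837871, plus strand), the earliest of the 3 at the boundary, had normalized counts of 65.6, 54.9 and 44.4 in the cKO and 148, 50.9 and 71.3 in the control. Control replicate a was alone far above the rest, and the log2 fold change of -0.59 ± 0.39 (SE, unadjusted p = 0.15) became -0.12 (unadjusted p = 0.70) without it and -0.95 (unadjusted p = 0.022) without control replicate b.

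The 3 ligand genes were near the lower limit of what these libraries can show. Fgf17 (ENSMUSG00000022101, chr14:70636203-70642268, minus strand), a relative of Fgf8 that acts in the cerebellar midline, had normalized counts of 25.3, 18.0 and 27.1 in the cKO and 61.9, 22.1 and 22.7 in the control. Control replicate a was again the highest, and the log2 fold change of -0.47 ± 0.46 (SE, unadjusted p = 0.33) changed to 0.05 (unadjusted p = 0.92) without it. Wnt1 (ENSMUSG00000022997, chr15:98789857-98793837, plus strand), the midbrain-side ligand, had 17.8, 20.1 and 8.66 in the cKO and 20.3, 15.4 and 5.40 in the control. Its log2 fold change of 0.24 ± 0.57 (SE, unadjusted p = 0.68) became -0.26 without control replicate c, and the 95% confidence interval of -1.01 to 1.49 leaves room for a large change either way.

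Fgf8 (ENSMUSG00000025219, chr19:45736798-45742915, minus strand), the main organizer signal, was below the minimum mean and was not tested. It had 15, 7 and 2 reads in cKO replicates a to c, and 8, 1 and 8 reads in control replicates a to c. The sums were 24 reads in the cKO (exact 95% Poisson interval 15.4 to 35.7) and 17 in the control (9.90 to 27.2), intervals that cover counting error only. No difference was established from these few reads.

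Gbx2 (ENSMUSG00000034486, chr1:89927956-89931179, minus strand), the hindbrain-side factor that is also expressed in the thalamus, had normalized counts of 613, 815 and 435 in cKO replicates a to c, and 326, 622 and 375 in control replicates a to c. The libraries were interleaved, although the mean was higher in the cKO (621 ± 189.9 against 441 ± 159, SD, n = 3). The log2 fold change was 0.51 ± 0.24 (SE, unadjusted p = 0.057). It passed the threshold without cKO replicate c (0.73, unadjusted p = 0.0069) and without control replicate b (0.79, unadjusted p = 0.0056), and was 0.30 without cKO replicate b (unadjusted p = 0.24) and without control replicate a (unadjusted p = 0.25). Otx2 (ENSMUSG00000021848, chr14:48657677-48673819, minus strand), the midbrain and forebrain factor, was the steadiest member, at 1736, 1805 and 1863 in the cKO and 1808, 1725 and 1613 in the control. Its log2 fold change was 0.07 ± 0.06 (SE, unadjusted p = 0.33), with a 95% confidence interval of -0.07 to 0.21.

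The exons of Pax5, Pax8, Otx2 and Gbx2 overlap genes on the opposite strand, over 946 bases for Gbx2 and D130058E05Rik and 636 bases for Pax5 and 5730488B01Rik, and Otx2 shares 168 bases with Gm49154 on its own strand. The use of strand in counting is not given in the sources used here, so reads of the opposite strand cannot be told apart. No exon overlap was found for En1, En2, Pax2, Fgf8, Fgf17 or Wnt1.

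**Figure D2:**
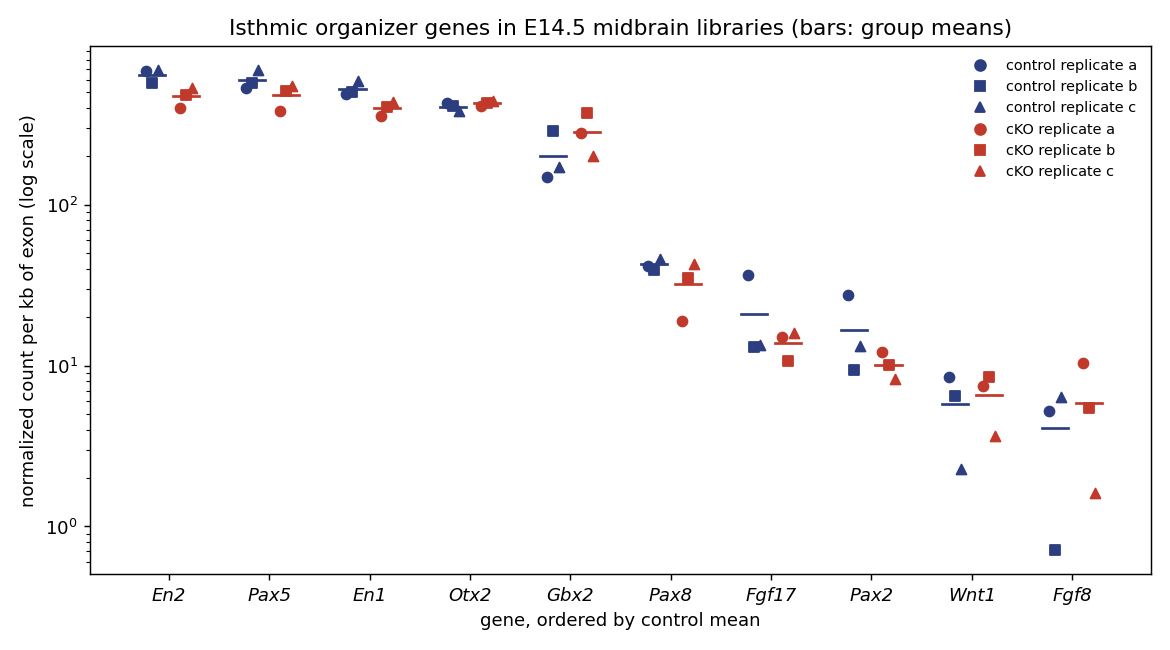
Normalized count per kb of exon (y axis, log scale) of each member in each library, ordered by control mean on the x axis, with a marker per replicate and bars at the group means. En2 and En1 show the cKO libraries (red) below the control libraries (blue), Otx2 shows them together, and the ligand genes lie near the bottom with a wide spread.

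Levels of different genes were compared per kb of exon. In the control, En2 was highest at 645 ± 66.7 normalized counts per kb, followed by Pax5 at 597 ± 81.2, En1 at 526 ± 53.4, Otx2 at 406 ± 23.2, Gbx2 at 203 ± 73.1 and Pax8 at 42.6 ± 3.48 (SD, n = 3). Fgf17 was at 21.1 ± 13.5, Pax2 at 16.6 ± 9.44, Wnt1 at 5.76 ± 3.20 and Fgf8 at 4.12 ± 3.01. The libraries of neighbours in this order overlapped for En2 and Pax5, Pax5 and En1, Fgf17 and Pax2, and Wnt1 and Fgf8, and did not overlap for the other neighbours. In the cKO, En1 at 399 ± 39.7 lay below Otx2 at 427 ± 15.02, although their libraries overlapped, while in the control every En1 library was above every Otx2 library.

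The libraries that stood out were not the same for all members. In the plot by library, cKO replicate a was the lowest library for En1, En2, Pax5 and Pax8, at -0.37, -0.49, -0.50 and -0.98 on the log2 scale relative to the mean of the 6 libraries. Control replicate a was the highest for Pax2 and Fgf17, at 1.03 and 1.07, and the lowest for Gbx2, at -0.71. The coefficient of variation over the control libraries was 5.71% for Otx2, 8.18% for Pax8 and 10.1% and 10.3% for En1 and En2, against 56.7% for Pax2 and 64.2% for Fgf17.

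**Figure D3:**
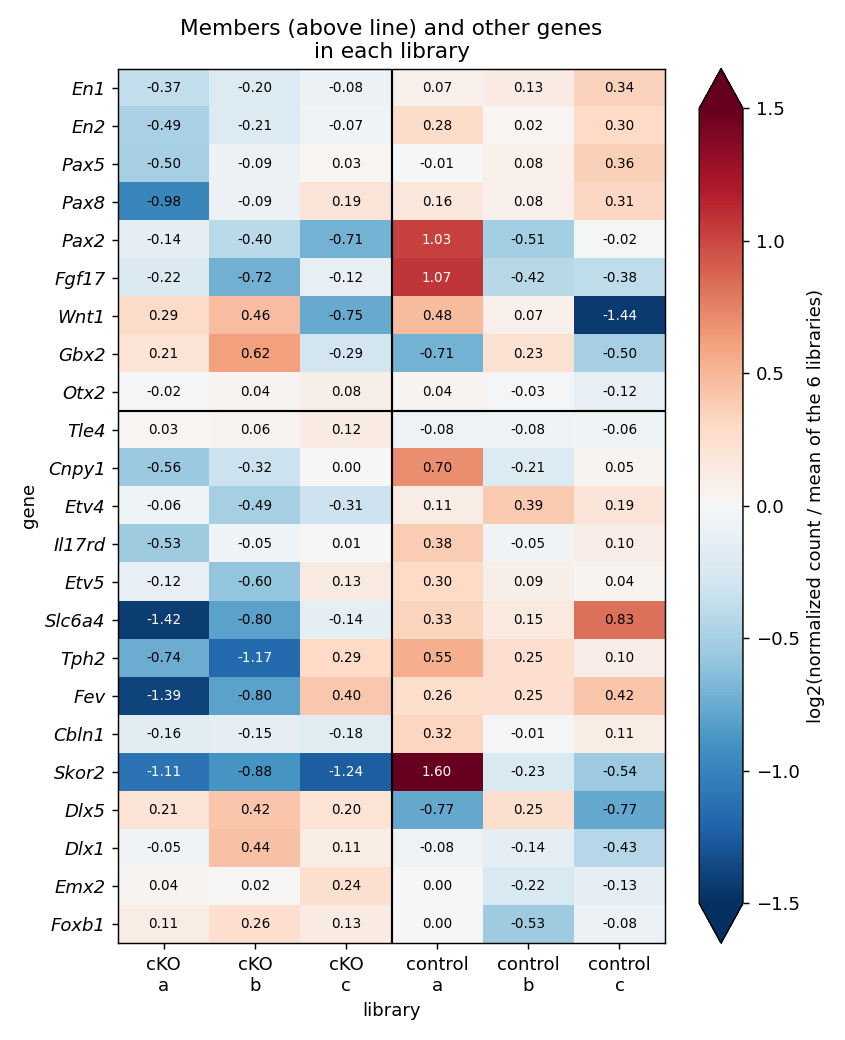
Log2 ratio of the normalized count in each library (columns) to the mean of the 6 libraries, for 9 members (above the line) and for the genes of 7 neighbouring lists with an unadjusted p-value under 0.05 (below the line). The row of En1 is negative in all cKO and positive in all control libraries, Pax2, Fgf17 and Skor2 are highest in control replicate a, and Slc6a4 and Pax8 are lowest in cKO replicate a.

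The genes whose libraries followed En1 most closely were found by the root-mean-square distance between log2 normalized counts, each centred on its own mean, over the 6 libraries and 12341 genes with a mean of at least 100. For En1 these were Gm29462 (0.04), Lrig1 (0.05), which codes for a membrane protein that restrains growth factor receptors, and Slc25a18 (0.06), which codes for a mitochondrial glutamate carrier. Pax5 was at 0.09 and En2 at 0.11 from En1, while the median distance was 0.25, with Pax8 at 0.27, Otx2 at 0.27 and Gbx2 at 0.63. For En2 they were Nup37 (0.04), a nuclear pore component, Slc25a18 (0.07) and Myo1e (0.09), an unconventional myosin. Lrig1 had normalized counts of 1647, 1713 and 1876 in the cKO and 2086, 2209 and 2397 in the control.

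Among 14 relatives and partners of the members, 13 were tested, and 1 was lower and 1 was higher at the unadjusted threshold. The shares of all genes tested were 1.62% and 1.19%. The median log2 fold change of the 13 was -0.07, and -0.06 to -0.02 with a library left out. Cnpy1, which is expressed at the boundary and modulates FGF signalling in zebrafish, was lower, with normalized counts of 1270.4, 1496 and 1875 in the cKO and 3036, 1621 and 1933 in the control. Its log2 fold change was -0.49 ± 0.20 (SE, unadjusted p = 0.031), and it lost the threshold without cKO replicate a (-0.35), cKO replicate b (-0.48) or control replicate a (-0.22). Tle4, a Groucho co-repressor that Engrailed proteins can recruit, was higher by 0.14 ± 0.05 (SE, unadjusted p = 0.012), a call lost without cKO replicate c (0.12). Pbx3, whose relatives serve as Engrailed cofactors, differed by -0.01 ± 0.05 (SE).

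FGF signalling induces its own feedback regulators and ETS factors. Over 14 such genes and receptors the median log2 fold change was -0.15, and -0.18 to -0.09 with a library left out. At the unadjusted threshold 3 were lower and none was higher, against 1.62% and 1.19% of all genes tested. They were Etv4 (-0.51 ± 0.17, SE, unadjusted p = 0.013), whose groups did not overlap, Il17rd (-0.35 ± 0.15, unadjusted p = 0.036), an FGF antagonist of the boundary, and Etv5 (-0.34 ± 0.16, unadjusted p = 0.047). Etv4 had normalized counts of 159, 118 and 134 in the cKO and 179.6, 218 and 190.1 in the control. Etv4 lost the threshold without cKO replicate b (-0.41, unadjusted p = 0.057), Il17rd without cKO replicate a (-0.17), control replicate a (-0.22) or control replicate c (-0.37), and Etv5 in 5 of the 6 fits with a library left out, at -0.15 without cKO replicate b. Etv5 also lost it with limma-trend (-0.34, unadjusted p = 0.055) and at a minimum mean of 50 (unadjusted p = 0.05003). The genes of this list with the highest normalized counts, not scaled by length, Spred1 and Fgfr1, had log2 fold changes of -0.07 ± 0.06 and -0.12 ± 0.09 (SE). Over fits with a library left out, 1 to 3 genes of the list were lower, and the count was 1 without cKO replicate a, cKO replicate b, control replicate a or control replicate c.

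The canonical Wnt response list, which holds the feedback gene Axin2 and the transcription factors Lef1 and Tcf7, had 0 of 9 genes under the threshold, with a median log2 fold change of 0.09. With a library left out, the median was -0.009 (without control replicate c) to 0.24 (without cKO replicate c). Axin2 differed by 0.03 ± 0.10 (SE, unadjusted p = 0.80) and Tnfrsf19 by -0.07 ± 0.08 (SE, unadjusted p = 0.39). A single gene passed without cKO replicate c or without control replicate b.

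**Figure D4:**
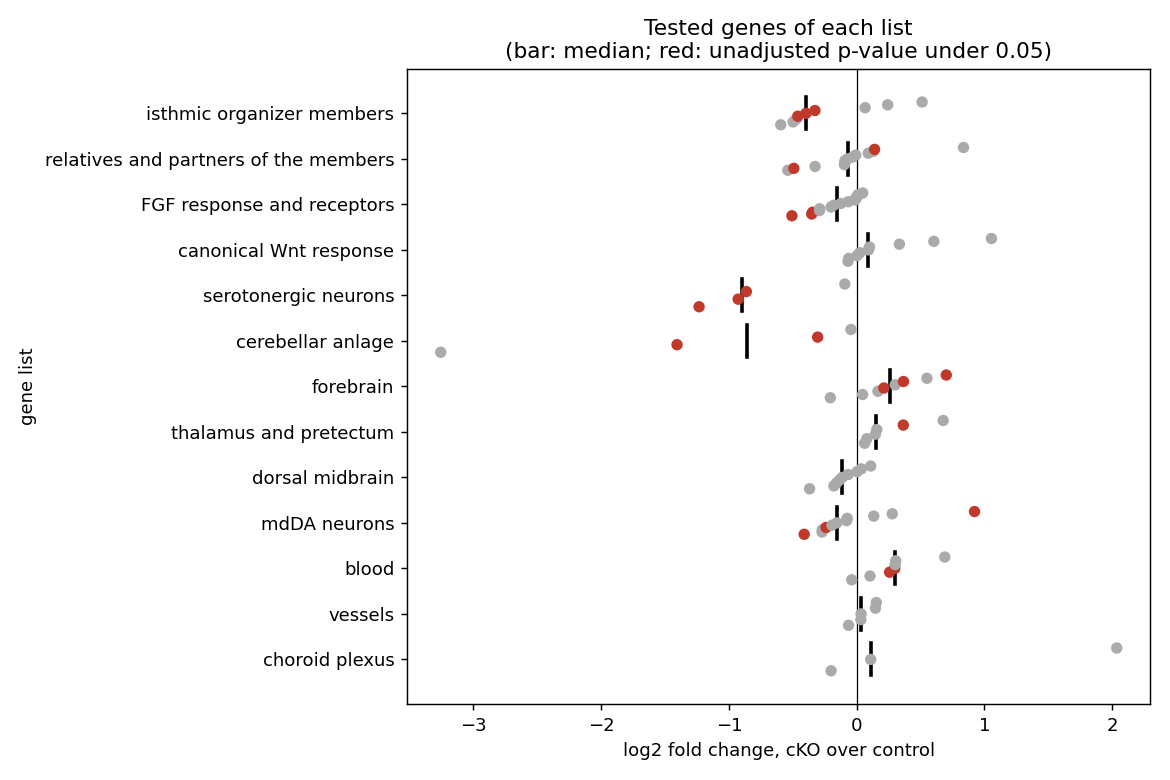
Log2 fold change (x axis, cKO over control) of each tested gene of 13 lists (y axis), with a bar at the list median and genes with an unadjusted p-value under 0.05 in red. The medians of the members, the serotonergic and the cerebellar list lie at -0.40, -0.90 and -0.86, that of the forebrain list at 0.26, and the bone and mesenchyme list is not drawn. With a library left out, these medians were -0.46 to -0.12, -1.33 to -0.63, -1.05 to -0.45 and 0.15 to 0.36, in that order.

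Genes that mark the tissue on either side of the midbrain also differed between the groups, and their values were set beside those of the members. Of 4 serotonergic genes, which mark neurons of the rostral hindbrain, 3 were lower and none higher, against 1.62% and 1.19% of all genes tested. Their summed normalized count was 347 to 617 in the cKO and 646 to 796 in the control. Slc6a4, the serotonin transporter, was at 82.4, 127 and 200.2 in the cKO and 278, 245 and 392.1 in the control (log2 fold change -1.23 ± 0.28, SE, unadjusted p = 0.00081), and it kept the threshold whichever library was left out. The other 2 were Tph2 (-0.86 ± 0.29), lost without cKO replicate b (-0.57), and Fev (-0.93 ± 0.35), lost without cKO replicate a (-0.50), cKO replicate b (-0.85) or control replicate c (-0.88).

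Of 5 cerebellar genes, 4 were tested and 2 were lower, against 1.62% of all genes tested. The summed normalized count was 3190.1 to 3206 in the cKO and 3457 to 4229 in the control. Most of that sum came from Barhl1 and Cbln1. Their mean normalized counts were 1611 and 1534 in the cKO and 1660 and 1900 in the control. Cbln1 was lower by -0.31 ± 0.08 (SE, unadjusted p = 0.0035), also with each library left out. Skor2, a marker of young Purkinje cells, had 49.7, 58.1 and 45.5 in the cKO and 325, 91.3 and 73.4 in the control (-1.41 ± 0.57, SE, unadjusted p = 0.029). It was at -0.69 (unadjusted p = 0.031) without control replicate a, and lost the threshold without any single cKO library. Atoh1 had no read in the cKO libraries and 74.3, 0 and 2.16 normalized counts in the control, again with control replicate a on top. Barhl1 differed by -0.04 ± 0.07 (SE). The 9 hindbrain Hox genes measured were at or near 0 throughout, with at most 6 reads of any gene in any library and sums of 2.16 to 7.495 normalized counts in the cKO and 2.16 to 6.19 in the control.

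On the rostral side, 3 of 8 tested forebrain genes were higher and none lower, against the 1.19% of all genes tested given above, with sums of 7150.4 to 9063 in the cKO and 6552 to 6941 in the control. They were Dlx5 (0.70 ± 0.23, SE), Dlx1 (0.37 ± 0.12) and Emx2 (0.21 ± 0.10). Dlx5 lost the threshold without control replicate a (0.51) or c (0.55), Dlx1 without cKO replicate b (0.23) or control replicate c (0.27), and Emx2 without cKO replicate c (0.15), control replicate b (0.16) or control replicate c (0.20), and the list's count was 1 without control replicate c. Emx2 also lost it under scaling to the total of recovered reads (0.21, unadjusted p = 0.056). In the thalamus and pretectum list 1 of 6 tested genes was higher, Foxb1 (0.37 ± 0.12, SE, unadjusted p = 0.011), which was at 0.20 (unadjusted p = 0.047) without control replicate b. The count was 3 without cKO replicate c or without control replicate b. For Tcf7l2, too abundant to be recovered, the authors' means were 15517 in the cKO and 14342 in the control. The list's sums overlapped, at 9533 to 11793 and 8704 to 10589.9. Of 9 dorsal midbrain genes, none passed the threshold, and their median was -0.11 (-0.17 to -0.04 with a library left out). A single gene of this list passed in 4 of the 6 fits with a library left out.

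The members' values beside these lists were as follows. Without control replicate a, the library with the highest Skor2 and Atoh1, the log2 fold change of En1 was -0.45 and that of En2 was -0.42. Without cKO replicate b, which had the lowest summed serotonergic count (347), they were -0.41 and -0.49. Without cKO replicate a, with the next lowest (349), they were -0.32 and -0.34, with unadjusted p-values of 0.0074 and 0.0036. Without cKO replicate c, where mesenchymal genes were highest, they were -0.46 and -0.55. The part of the position of the dissection in these differences was not tested.

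Among 11 genes of midbrain dopaminergic neurons, the cells in which Cre acts, 2 were lower, 1 was higher and the median log2 fold change was -0.16, and 0 to 4 were lower with a library left out (0 without control replicate c and 4 without control replicate a). Aldh1a1, which marks a rostrolateral subset, was higher by 0.92 ± 0.18 (SE, unadjusted p = 0.00023) and kept the threshold with each library left out. Pitx3 (-0.41 ± 0.18) and Ddc (-0.24 ± 0.10) lost it in 4 of 6 such fits each, with Pitx3 at -0.24 without cKO replicate a and Ddc at -0.11 without control replicate c, and Th (-0.16 ± 0.10, unadjusted p = 0.14) did not pass. Of the lists of other tissues, blood had 2 of 7 genes higher and none lower, against 1.19% and 1.62% of all genes tested. The blood count of higher genes was 0 to 3 with a library left out, and 0 without control replicate a. Vessels had 0 of 5 under the threshold, and choroid plexus 0 of 3 tested (Aqp1, at 2.04 ± 1.02, passed with limma-trend and without cKO replicate a). Ttr was at 6.34 in cKO replicate b and 0 in the other libraries. Bone and mesenchyme genes had a higher log2 fold change in 10 of 10 cases, with a median of 1.49. That median was 0.54 without cKO replicate c and 2.43 without cKO replicate b. Of these genes 1 passed the threshold (3 with limma-trend), Col3a1 (1.84 ± 0.77), which was at 1.03 without cKO replicate c and lost the threshold without any single control library. Without cKO replicate b, 7 of these 10 genes were higher at that threshold. Their part in the members' values was not tested.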

How the data were processed

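Paired-end reads of 6 libraries were mapped on GRCm38.p4 by a service provider for the authors. The submitters' processing notes name TopHat 1.0.14, Bowtie2 2.1.0, HTSeq 0.6.1p1 and DESeq 1.10.1, while the methods of the study name DESeq2. The deposited coverage columns hold, as signal, the mean over 3 libraries of the authors' read counts after scaling each library by its own size factor. The deposited ratio, log2 ratio, p-value and adjusted p-value of the authors' own comparison were not used. Of the mean counts, 31.9% (cKO) and 31.8% (control) stood on 3 lines that name no gene and were left out.

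Whole read counts per library were searched that give each printed mean, for sums of up to 30000 reads, with 1 size factor per library. Every mean within that limit had a single answer, which gave 26248 of 26852 genes in both groups (97.8%). Of 500 decoy values per group, 2 and 3 had an answer, and the search and the test were tested on simulated data. More abundant genes were left out of all tests. The recovered genes held 66.3% (cKO) and 66.4% (control) of the gene counts, and each library held 19711032 to 23954501 reads on genes recovered in both groups. The 16573 genes whose mean over both groups reached 10 normalized counts entered a fit with limma 3.58.1 (voom weights, R 4.3.3), with genotype as the term and Benjamini-Hochberg adjustment. Because the labels do not tie the recovered libraries to sample numbers, replicates a, b and c are ordered by falling size factor. p-values measure the spread between these libraries. Single values were compared by exact two-sided permutation tests. Symbols, positions and exon lengths came from GENCODE M21 (GRCm38), promoter windows from RefSeq (GRCm38.p6).

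The members and the lists were chosen with earlier results of these data known. Named genes are the 10 members, genes of the other 14 lists with an unadjusted p-value under 0.05 (up to 6 per list), the 2 genes of a list with the highest mean normalized count, and the 3 genes nearest in pattern to En1 and to En2. Other genes were named after their values were seen. Some genes of the lists are not reported here. Alternatives were recomputed size factors, scaling to the total of recovered reads, limma-trend, minimum means of 1 and 50, omission of every library one by one, and a pseudocount of 1.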

Additional observations from a re-analysis of the deposited data

How the results depend on the processing

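No other scaling, limma-trend or minimum mean changed the direction of a tested member or the side of the threshold for En1, En2 and Pax5. A minimum mean of 1 raised the members under the unadjusted threshold from 3 to 5, since Pax8 (-0.50) and Gbx2 (0.51) then passed it, and gave Fgf8 a log2 fold change of 0.60 (unadjusted p = 0.51). Fgf17 and Wnt1 were not tested at a minimum of 50. At a minimum of 1, 695 genes passed the unadjusted threshold, against 466. Leaving out each library gave 0 to 3 genes with an adjusted p-value under 0.05, the 3 being found without control replicate a, and 2 to 5 members under the unadjusted threshold. Over these fits the log2 fold change lay between -0.46 and -0.32 for En1, -0.55 to -0.34 for En2, -0.95 to -0.12 for Pax2, -0.43 to -0.16 for Pax5, -0.73 to -0.13 for Pax8, -0.75 to 0.05 for Fgf17, -0.26 to 0.62 for Wnt1, 0.30 to 0.79 for Gbx2 and 0.03 to 0.11 for Otx2. Fgf17 changed sign without control replicate a (0.048) and Wnt1 without control replicate c (-0.26), and the cause was not tested. The scaling alternatives left 2 members without overlap, En1 and En2. The median log2 fold change of all genes tested stayed within 0.01 of 0 in every fit. No paired analysis was possible because the deposited headers number the libraries N1 to N3 in both groups but the recovered libraries could not be tied to those numbers. The depth limits the 3 ligand genes most, with at most 70 reads of any of them in a library.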
